A study of Homo sapiens with 8 samples.

Results

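The SCAN-domain zinc finger genes are a vertebrate family of transcription factor genes, named after the SCAN domain that most of their proteins carry near the N terminus. Members were defined by gene symbol in the platform annotation of the arrays, as every symbol that starts with ZSCAN or ZKSCAN, plus 14 named genes: SCAND1, PGBD1, MZF1, ZNF24, ZNF165, ZNF174, ZNF213, ZNF396, ZNF397, ZNF444, ZNF446, ZNF449, ZNF496 and ZNF500. This gave 41 genes of the 18132 that the arrays measured, 27 of them by the start of the symbol, and all 14 named ones were measured. Each gene was read from the probe set assigned to it alone that had the highest mean over the 8 arrays. The family was taken up with results of this comparison in view, among them the large fall of ZSCAN5A, so the differences below describe the members and are no independent evidence about the family.

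The samples were AGS cells, an established human gastric adenocarcinoma line, grown in medium with serum and antibiotics. The 4 control samples are labelled as control, and the 4 treated samples received podofilox at 3.4 nM for 72 hours. Podofilox, or podophyllotoxin, comes from plants and blocks microtubule assembly through its site on tubulin. The labels do not tell whether control cells received the drug's solvent or whether replicates were separate cultures, so the errors cover the spread between arrays, which may be technical. In bulk RNA, fewer cells of a kind and less RNA per cell cannot be told apart.

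The SCAN domain is a short helical, leucine-rich module with which these proteins pair with themselves or with each other. It binds no DNA. The zinc fingers of the C2H2 type at the other end of the protein bind DNA. Some members, mostly named ZKSCAN, also carry a KRAB domain. Many KRAB domains recruit the co-repressor TRIM28 and enzymes that silence chromatin. Whether those of the members do so was not tested. SCAND1 is little more than a SCAN domain, and PGBD1 joins a SCAN domain to a sequence derived from a piggyBac transposase, so neither carries the row of fingers of the others.

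Few of the members passed the test. A gene is said to have fallen or risen where its adjusted p in limma's fit over all 18132 genes was under 0.05. By that rule 4 of the 41 members fell (ZSCAN5A, ZSCAN30, PGBD1 and ZKSCAN2), 1 rose (ZNF165) and 36 did neither. Over all genes 12.5% fell and 8.55% rose, or 21.0% in either direction, beside 12.2% of the members. With each array centred on its median, or with a further quantile normalization, the members' counts were 4 fallen and 3 risen, the added genes being ZKSCAN1 and ZSCAN2. Of all genes 20.9% and 21.4% were called in these settings, in that order. The median difference of the members, podofilox minus control on the log2 scale of the deposited values, was -0.0087, and that of all genes was 0.0069. Median centring adds the same amount to every gene's difference, and gave 0.011 for the members and 0.026 for all genes.

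**Figure D1:**
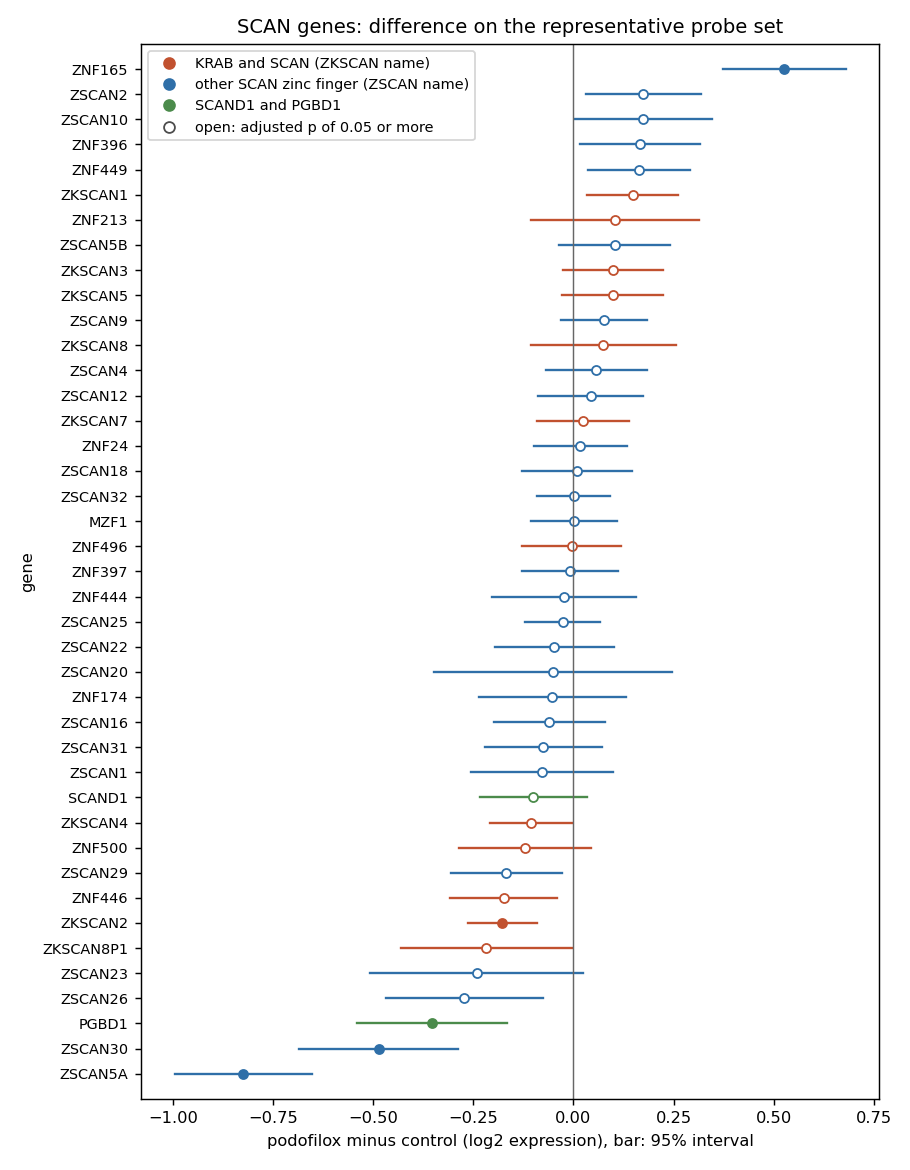
Podofilox minus control on the log2 scale (x axis) for each of the 41 SCAN genes (y axis), read from the representative probe set. Points are differences and bars are 95% intervals from limma, filled points passed the threshold, and colours give the class by name. ZSCAN5A (-0.82) and ZNF165 (0.53) lie at the ends, and most intervals cross 0.

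Differences ran from -0.82 to 0.53, with 22 members below 0 and 19 above. The 95% interval lay within a 1.25-fold change in either direction for 32 members (78.0%), as it did for 74.8% of all genes. It lay within 1.5-fold for 38 members (92.7%, against 97.5% of all genes), and the exceptions were ZSCAN5A, ZSCAN30 and ZNF165. The 4 podofilox arrays lay wholly below the 4 control arrays for ZSCAN5A, ZSCAN30 and ZKSCAN2 and wholly above them for ZNF165. These 4 genes compare with a share of 26.2% of all genes whose groups did not overlap.

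ZSCAN5A encodes a finger protein whose gene sits beside close paralogues, ZSCAN5B among them. Its control values were 6.73, 6.66, 6.50 and 6.42 on arrays 1 to 4, and its podofilox values were 5.71, 5.87, 5.63 and 5.81. Every podofilox array was thus lower than every control array. The difference was -0.82 (SE 0.08, 95% interval -0.995 to -0.65), or 1.77-fold lower, with -0.91 on arrays 1 and 2 alone and -0.74 on arrays 3 and 4 alone. Here and below this split goes by replicate number alone, and replicate numbers did not pair the samples. The size of the fall of ZSCAN5A was known when the family was chosen, so its call, counted above, is a description and no independent test. ZSCAN5A was measured by 1 probe set, and paralogues of near-identical sequence may share its probes.

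The paralogue ZSCAN5B did not pass the threshold. Its values were 6.14, 6.12, 6.07 and 5.98 on control arrays and 6.27, 6.10, 6.07 and 6.27 on podofilox arrays. The groups overlapped, and the difference was 0.10 (SE 0.06, 95% interval -0.04 to 0.24).

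Stretches upstream of the transcription start were read for the fallen members that RefSeq's promoter table (GRCh38.p14) holds and for the paralogue ZSCAN5B, which did not pass the threshold. They are shown so that the neighbouring pair ZSCAN5A and ZSCAN5B, and the other falling genes, can be compared letter by letter. Each is the 250 bases before a listed start, 5′ to 3′ on the gene's own strand, and capitals mark CCGGAA or its reverse complement, the core recognised by ETS-family factors. The table lists 4 starts for ZSCAN5A and 2 for ZSCAN5B, and the window printed is the one that holds the core. The probe sets do not tell which start was used. The windows are chr19:56314840-56315089 (minus strand) for ZSCAN5A, chr19:56197784-56198033 (minus strand) for ZSCAN5B, chr18:35290230-35290479 (minus strand) for ZSCAN30 and chr6:28281322-28281571 (plus strand) for PGBD1.
ZSCAN5A: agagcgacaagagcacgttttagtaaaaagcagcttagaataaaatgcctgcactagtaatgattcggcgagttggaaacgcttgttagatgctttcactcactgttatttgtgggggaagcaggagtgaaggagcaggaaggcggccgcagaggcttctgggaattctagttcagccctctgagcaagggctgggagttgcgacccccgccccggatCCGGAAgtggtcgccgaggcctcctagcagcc
ZSCAN5B: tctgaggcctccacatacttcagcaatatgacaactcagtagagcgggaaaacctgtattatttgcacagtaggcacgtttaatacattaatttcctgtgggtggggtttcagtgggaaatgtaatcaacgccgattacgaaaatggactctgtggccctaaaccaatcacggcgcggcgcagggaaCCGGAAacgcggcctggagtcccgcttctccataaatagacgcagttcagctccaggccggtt
ZSCAN30: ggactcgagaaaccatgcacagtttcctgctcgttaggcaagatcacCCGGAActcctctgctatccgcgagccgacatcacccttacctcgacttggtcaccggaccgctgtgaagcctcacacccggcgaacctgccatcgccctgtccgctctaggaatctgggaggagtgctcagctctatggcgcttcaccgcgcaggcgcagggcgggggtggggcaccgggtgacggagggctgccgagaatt
PGBD1: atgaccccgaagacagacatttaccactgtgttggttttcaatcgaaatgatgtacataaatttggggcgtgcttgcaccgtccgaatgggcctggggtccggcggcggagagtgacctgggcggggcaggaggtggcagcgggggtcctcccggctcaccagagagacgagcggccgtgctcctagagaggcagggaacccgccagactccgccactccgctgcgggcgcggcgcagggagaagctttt

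The ETS core stood 32 bases before the start of ZSCAN5A, 63 before that of ZSCAN5B and 203 before that of ZSCAN30, and these letters are not in the PGBD1 window. Both ZSCAN5A, which fell, and ZSCAN5B, which did not pass, thus carry it. Of the 34 members in the table, 21 (61.8%) held CCGGAA on either strand before at least 1 listed start. The same held for 23.5% of 14425 measured genes and for 41.4% of 391 other genes whose symbol starts with ZNF and a digit. A gene with more listed starts has more chances to hold the core. The 34 members had 52 windows, the measured genes 20403 and the 391 other ZNF genes 511. Counted by window and not by gene, the share over all 35116 windows of the table, those of unmeasured genes included, was 14.5%. This share, and the shares of windows given below, do not compare directly with shares by gene.

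CCAAT, the letters of the CCAAT box, stood upstream of 17 of the 34 members (50%), 50.6% of the other ZNF genes and 40.5% of measured genes (32.0% of all windows). CACGTG, the E-box bound by MYC with MAX, stood upstream of 2 members, ZSCAN12 and ZSCAN18 (5.88%, against 9.82% of measured genes and 6.34% of windows). TATAAA, the TATA box, was found upstream of ZSCAN4 alone among the members (2.94%, against 11.5% of measured genes and 10.7% of windows). Both strands were searched for 11 motifs, and CCGGAA was put forward after its counts were seen. TTTCCGG, another of the 11, holds its reverse complement.

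ZSCAN30 fell on its representative probe set. The control values were 5.75, 6.06, 6.14 and 5.97, and the podofilox values were 5.39, 5.50, 5.41 and 5.68. The groups did not overlap, although control array 1 and podofilox array 4 lay close to each other. The difference was -0.49 (SE 0.09, 95% interval -0.69 to -0.29), 1.40-fold lower, with -0.46 on arrays 1 and 2 alone and -0.51 on arrays 3 and 4 alone. Its 3 dimmer probe sets, at -0.13, 0.04 and 0.02, did not pass the threshold, and with the mean of all 4 its difference was -0.14.

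PGBD1, the transposase-derived member, had control values of 6.33, 6.73, 6.63 and 6.60 and podofilox values of 6.35, 6.25, 6.14 and 6.15. Control array 1 lay just below podofilox array 1, so the groups overlapped by this pair alone. PGBD1 fell by 0.35 (SE 0.08, 95% interval -0.54 to -0.17), with -0.23 on arrays 1 and 2 alone and -0.47 on arrays 3 and 4 alone. Its other probe set, at a mean of 4.30, was at -0.12 and did not pass. SCAND1, the other member without the row of fingers, which binds SCAN partners such as MZF1, had a difference of -0.10 (95% interval -0.23 to 0.03) and did not pass.

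ZKSCAN2, a KRAB and SCAN protein, fell by little but with tight replicates. Its control values were 7.37, 7.43, 7.44 and 7.41 and its podofilox values 7.25, 7.24, 7.24 and 7.21. The groups did not overlap, and the difference was -0.18 (SE 0.04, 95% interval -0.26 to -0.09). None of its 4 dimmer probe sets passed the threshold, with differences from -0.07 to 0.09. With the mean of its 5 probe sets the difference was -0.03 and the call ended (adjusted p = 0.706 by limma).

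ZNF165, a gene known as a cancer-testis antigen and normally active in testis, was the 1 member that rose. Its control values were 8.52, 8.61, 8.34 and 8.37, and its podofilox values were 8.87, 9.07, 9.02 and 8.99. The lowest podofilox value exceeded the highest control value. ZNF165 rose by 0.53 (SE 0.07, 95% interval 0.37 to 0.68), or 1.44-fold, with 0.41 on arrays 1 and 2 alone and 0.65 on arrays 3 and 4 alone. It rests on 1 probe set.

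**Figure D2:**
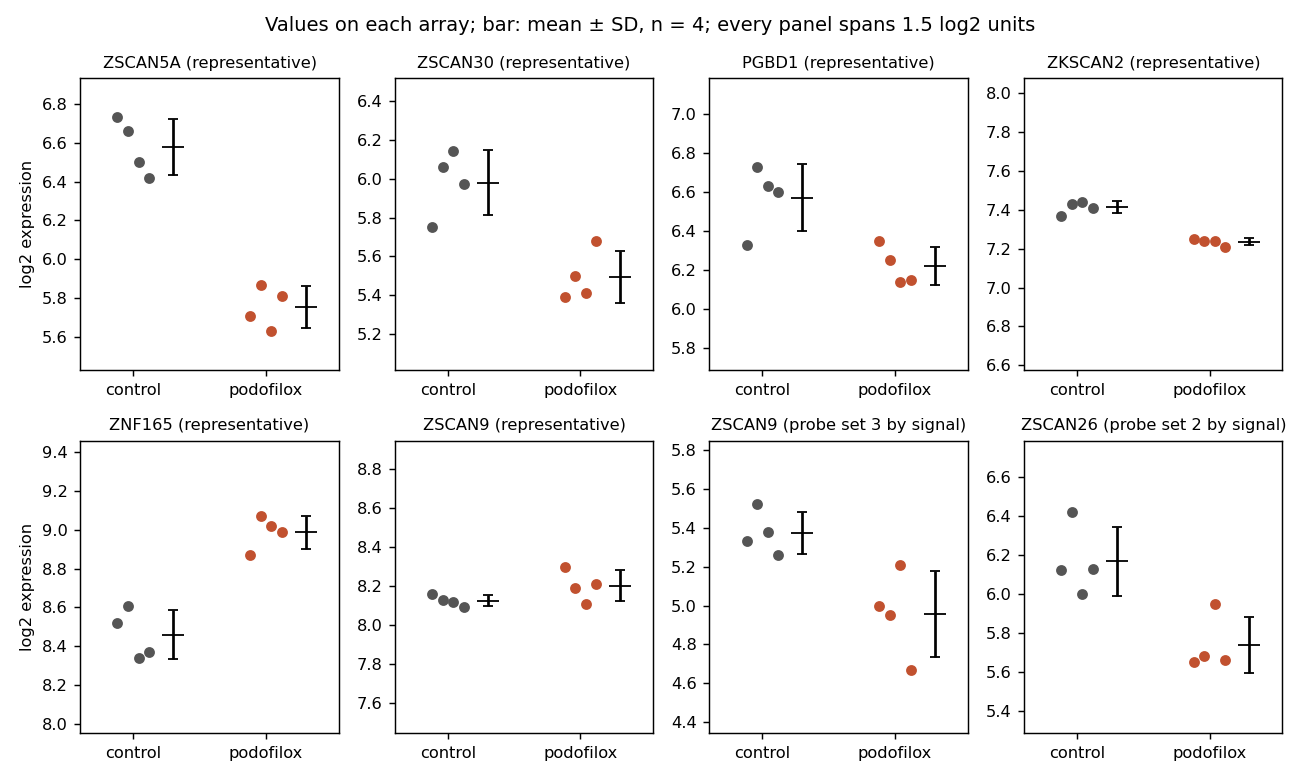
Log2 expression (y axis) of the called SCAN genes, of both ends of ZSCAN9 and of a ZSCAN26 probe set, with 4 control and 4 podofilox arrays per panel as points and mean ± SD beside them. Every panel spans the same height, so the gap of ZSCAN5A (6.58 to 5.75) can be set against the narrow one of ZKSCAN2 (7.41 to 7.24).

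By class, 12 members had a ZKSCAN symbol or RefSeq synonym, the name given to genes with KRAB and SCAN domains. The pseudogene ZKSCAN8P1 is counted among them. Of these 12, 1 fell (ZKSCAN2) and 0 rose, with a median of 0.01. The 27 other finger genes held 2 that fell (ZSCAN5A and ZSCAN30) and 1 that rose (ZNF165), with a median of -0.0087. These counts, too, stand beside 12.5% fallen and 8.55% risen over all genes. Among the KRAB members without a call, ZKSCAN1 (0.15, 95% interval 0.03 to 0.26) and ZNF446 (-0.17, 95% interval -0.31 to -0.04) came nearest to the threshold. ZKSCAN1 was above 0 on 5 of its 7 probe sets, with a range from -0.23 to 0.16. ZNF213 was above 0 on all 8 of its probe sets, from 0.0066 to 0.14, and passed on none.

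ZKSCAN3, known as a repressor of autophagy and lysosome genes, had control values of 5.40, 5.28, 5.24 and 5.27 and podofilox values of 5.46, 5.43, 5.27 and 5.43. The groups overlapped, and the difference of 0.10 (SE 0.06, 95% interval -0.03 to 0.22) did not pass. Of 9 genes of autophagy and lysosome control set beside it, 3 rose (MAP1LC3B by 0.26, GABARAPL2 by 0.21 and LAMP2 by 0.19) and 1 fell (LAMP1, at -0.17). The median of that list was 0.11, and 21.0% of all genes were called in either direction. Its genes had means from 5.68 to 12.02. In a fit of only the genes above the median signal, 44.9% were called.

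MZF1 regulates myeloid cell differentiation. Its control values were 9.38, 9.38, 9.42 and 9.37 and its podofilox values 9.47, 9.43, 9.29 and 9.35. Podofilox arrays 1 and 2 lay above the controls and arrays 3 and 4 below, giving 0.07 for the first pair of numbers and -0.07 for the second. The difference was 0.0002 (SE 0.05, 95% interval -0.11 to 0.11), so a change of 1.25-fold lies outside its interval.

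ZNF24, which acts in proliferating cells and represses the vascular growth factor VEGF, did not pass the threshold. Its control values were 8.56, 8.58, 8.70 and 8.66, and its podofilox values were 8.66, 8.73, 8.57 and 8.60. The groups overlapped, and the difference was 0.02 (SE 0.05, 95% interval -0.10 to 0.13), with 0.13 on arrays 1 and 2 alone and -0.09 on arrays 3 and 4 alone. Of the 5 probe sets of ZNF24, 3 were above 0 and 2 below, from -0.09 to 0.10, and none passed. On the second brightest (mean 8.62, beside 8.63 for the representative) every podofilox array lay above every control array, at 0.10. ZSCAN4, known from early embryos and from telomere upkeep in embryonic stem cells, had control values of 6.35, 6.09, 6.21 and 6.24 and podofilox values of 6.27, 6.25, 6.28 and 6.33. The groups of ZSCAN4 overlapped, with a difference of 0.06 (SE 0.06, 95% interval -0.07 to 0.18).

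The 41 genes had 124 single-gene probe sets, and 34 genes had more than 1. In 13 of these 34 the differences of all probe sets had the same sign. With all probe sets of the arrays fitted together, 9 of the 124 fell and 1 rose, where 10.2% of all probe sets fell and 7.83% rose. Of the 83 probe sets that were not representatives 5 fell, and 37 of the 83 had means below 5, where small differences are hard to read.

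ZSCAN9 was the 1 member with probe sets called in the direction opposite to its representative. The representative, with control values of 8.16, 8.13, 8.12 and 8.09 and podofilox values of 8.30, 8.19, 8.11 and 8.21, was at 0.08 and did not pass. A dimmer probe set had control values of 5.33, 5.52, 5.38 and 5.26 and podofilox values of 5.00, 4.95, 5.21 and 4.67. There the groups did not overlap, and it fell by 0.42 (SE 0.10). The remaining one, of the _s_at kind that can bind more than 1 transcript, went from 6.39 ± 0.09 to 6.14 ± 0.13 (SD, n = 4 each) and fell by 0.25 (SE 0.07). As the mean of its 3 probe sets ZSCAN9 was at -0.20 and passed.

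ZSCAN26 and ZSCAN29, named here after their values were seen, fell on probe sets other than the representative. For ZSCAN26 the second brightest probe set had control values of 6.12, 6.42, 6.00 and 6.13 and podofilox values of 5.65, 5.68, 5.95 and 5.66, with no overlap and a difference of -0.43 (SE 0.10). Another of its probe sets also fell, at -0.25 (SE 0.07), with no overlap. The representative, of the _x_at kind, was at -0.27 (95% interval -0.47 to -0.08) and lay just short of the threshold. With probe sets of the _x_at and _s_at kinds left out, ZSCAN26 was called as fallen. All 5 of its probe sets were below 0. For ZSCAN29 the dimmer of its 2 probe sets fell by 0.26 (SE 0.06), from 6.15 ± 0.10 to 5.89 ± 0.09 (SD, n = 4 each), beside -0.17 on the representative.

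**Figure D3:**
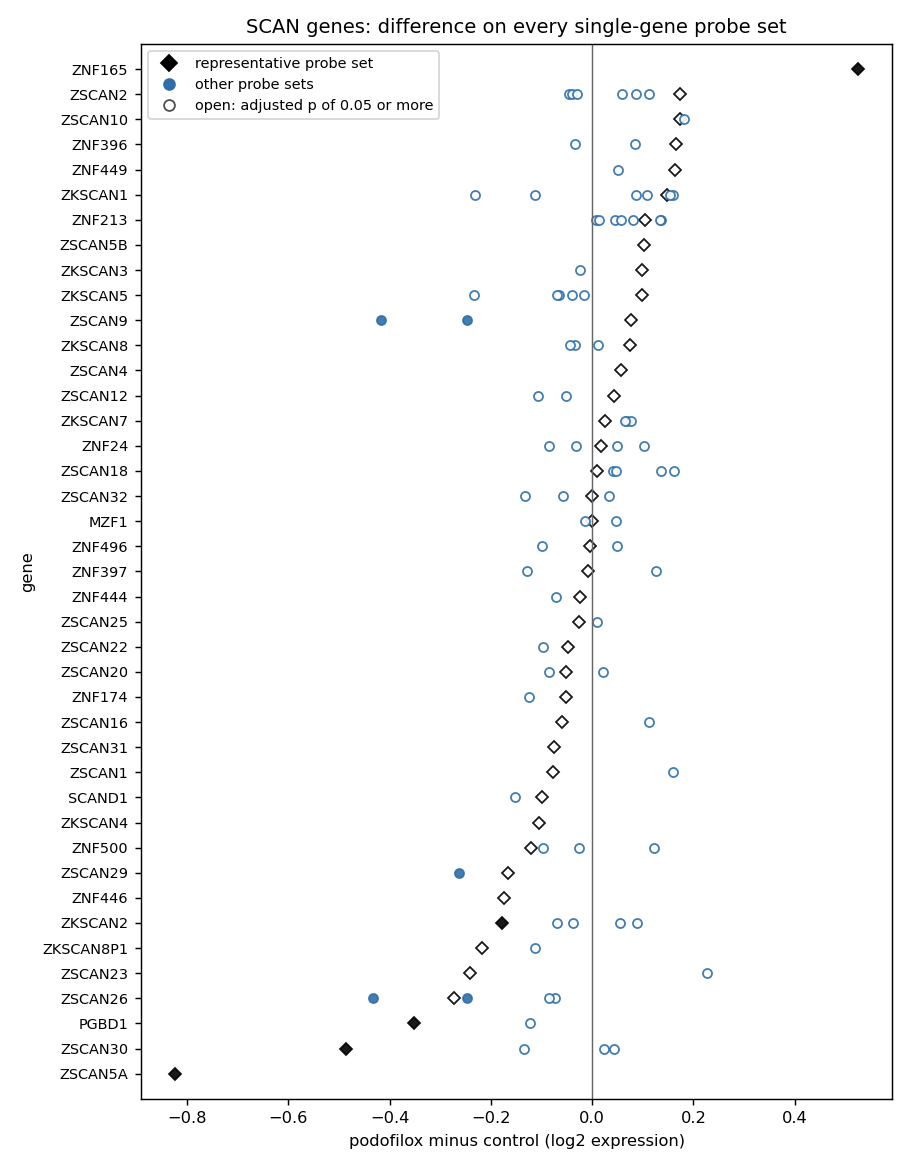
Podofilox minus control on the log2 scale (x axis) for all 124 probe sets of the 41 SCAN genes (y axis). Diamonds are representatives, circles are the other probe sets, and filled marks passed the threshold in the fit over all probe sets. ZSCAN9 has its representative above 0 (0.08) and both other probe sets below (-0.25 and -0.42).

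Many of these genes lie next to each other. In the order of RefSeq GRCh38.p14, 12 members stand in a row of neighbours (starts less than 1 Mb apart) that begins with ZNF165 and ends with ZSCAN23. ZNF165, at the first place, rose, PGBD1 in the eighth place fell, and the row's differences ran from -0.35 to 0.53 with a median of -0.07. Over all genes 12.5% fell and 8.55% rose. Of the 12 members 7 were below 0. ZSCAN26 (-0.27) and ZSCAN31 (-0.08), on either side of PGBD1, were among them and did not pass the threshold.

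In each of the other groups of neighbours at most 1 gene was called, again beside 12.5% fallen and 8.55% risen over all genes. ZSCAN30 fell by 0.49 while ZNF397, its neighbour on the opposite strand, was at -0.0087 (SE 0.05), and ZNF24 and ZNF396, next in order, were at 0.02 and 0.17. ZSCAN5A stood at -0.82 next to ZSCAN5B at 0.10, with ZNF444 beyond it at -0.02. In the row from ZSCAN4 to MZF1, 6 members ran from -0.17 (ZNF446) to 0.06 (ZSCAN4), with 0 fallen and 0 risen. ZSCAN32 and ZNF174, whose listed promoter windows overlap on opposite strands, were at 0.0006 and -0.05.

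**Figure D4:**
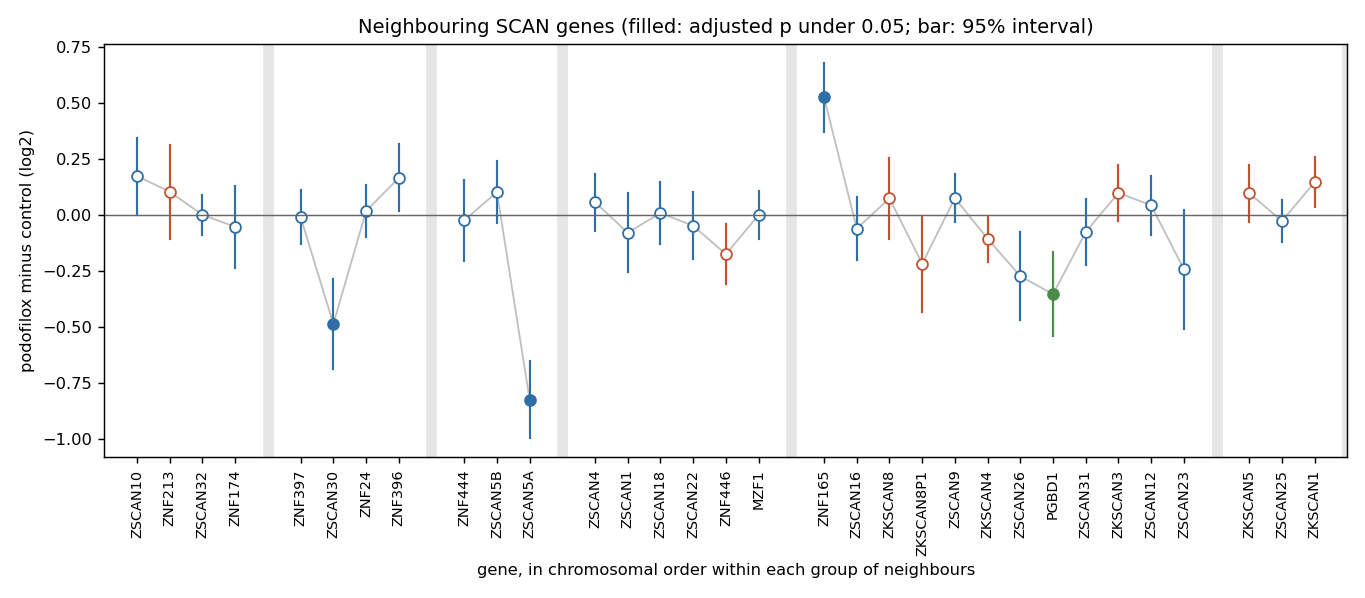
Podofilox minus control on the log2 scale (y axis) for SCAN genes that have at least 2 neighbours from the family, in chromosomal order within each group (x axis, groups parted by grey bands). Orange marks ZKSCAN names, green PGBD1 and blue the other members, filled points passed the threshold, and bars are 95% intervals. ZNF165 (0.53) and PGBD1 (-0.35) belong to the same row of 12.

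Of the remaining members, ZSCAN2, ZSCAN10, ZNF396 and ZNF449 were the highest without a call, at 0.17, 0.17, 0.17 and 0.16. ZSCAN10, known for its part in pluripotent stem cells, was at 0.34 on arrays 1 and 2 alone and at 0.01 on arrays 3 and 4 alone. ZSCAN23 (-0.24, 95% interval -0.51 to 0.02) and the pseudogene ZKSCAN8P1 (-0.22, 95% interval -0.43 to -0.0043) were the lowest besides ZSCAN26, and both were dim, with control means of 4.37 and 4.69. The other probe set of ZSCAN23 went the opposite way, at 0.23, and that of ZKSCAN8P1 was at -0.11. Neither passed. The most uncertain was ZSCAN20, with a difference of -0.05 and an SE of 0.13. The other 13 members, none of them called, all lay between -0.12 and 0.10. ZSCAN31 (-0.08, given above), ZNF500 (-0.12), ZKSCAN4 (-0.11) and ZKSCAN5 (0.10) are among them.

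Related genes outside the rule were set beside the family. Measured under other names were 14 SCAN-domain genes, the pseudogene SCAND2P among them. Of these 2 fell and 0 rose, with a median of -0.0018: ZNF445 at -0.47 (SE 0.05) and ZNF202 at -0.31 (SE 0.04). Of 469 other genes whose symbol starts with ZNF and a digit, 91 fell and 27 rose (25.2% called), with a median of -0.04. Of 16 co-repressor genes that many KRAB proteins work through, 7 fell and 0 rose, with a median of -0.10, where 12.5% of all genes fell and 8.55% rose. These 16 were bright, with means from 7.9 to 12.02. In a fit of only the genes above the median signal, 28.6% fell and 44.9% were called in either direction. Whether the 16 differ from other genes of like brightness was not tested. TRIM28, the co-repressor that many KRAB domains bind, was at -0.37 (SE 0.04). TASOR and MPHOSPH8, both of the HUSH silencing complex, were at -0.27 (SE 0.04) and -0.32 (SE 0.05). The remodeller CHD3 was at -0.30 (SE 0.05). Whether the family differs from these lists was not tested.

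Podofilox array 3 gave the lowest of the 4 podofilox values in 22 of the 41 members, and its median over all genes was 6.93, beside 6.98 to 6.99 on the other podofilox arrays. Without that array the members' median difference was 0.03, with 4 fallen and 2 risen (ZNF165 and ZKSCAN1), where 19.8% of all genes were called. The count of risen members was also 2 without control replicate 1 (ZNF449 added) and without podofilox replicate 2 (ZNF396 added). In these fits 17.2% and 16.7% of all genes were called. The epithelial markers KRT8, KRT18, KRT19 and EPCAM had means from 12.9 to 13.3 and 0 of 4 was called. Of the fibroblast markers 0 of 5, of the immune markers 1 of 4 (CD68, which rose by 0.28) and of the endothelial markers 1 of 4 (CDH5, which fell by 0.44) was called, with means from 3.21 to 5.95, 3.56 to 7.36 and 5.02 to 6.94. The summed log2 levels of these 3 lists overlapped between the groups: fibroblast 21.7 to 22.6 in control and 22.0 to 23.0 with podofilox, immune 20.4 to 21.0 and 20.8 to 21.2, endothelial 23.6 to 25.3 and 23.8 to 24.5. Their part in the members' differences was not tested.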

How the data were processed

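The authors deposited a table of log2 expression, with a value for each probe set on each array, made by RMA per the submitters' processing notes. RMA's software and options are unstated in those notes, and no detection calls come with the table. Its range shows that it is on a log2 scale. The number of arrays limits the precision.

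Members and lists were chosen with earlier results of these data known. Control probe sets and probe sets of several genes were left out. The 2 groups were fitted in limma 3.58.1 under R 4.3.3 (group as the only term, all 8 arrays, Benjamini-Hochberg over all genes), tested on simulated data first. A second fit took all 44988 single-gene probe sets. The 41 members matched RefSeq (GRCh38.p14) by Entrez identifier. Values of all arrays are printed for the called members, for members with a probe set called in the opposite direction, and for MZF1, ZKSCAN3, ZSCAN4 and ZNF24. Those of ZSCAN5B and of a ZSCAN26 probe set were added after their values were seen. Lists outside the family are named by up to 4 members with the smallest p. Replicate numbers did not pair the samples. Alternatives changed probe sets, filter, scaling, variance model, weights, block, arrays left out and pairs of arrays. Figures used matplotlib 3.10.9.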

Additional observations from a re-analysis of the deposited data

Results flagged for a closer look

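Within groups of 4 arrays, 3 of the 82 member groups held an array far from the rest, where chance flags about 1 in 20. ZSCAN26 was at 6.42 on podofilox replicate 1, above 6.09 to 6.13 on the others. ZNF213 was at 9.16 on podofilox replicate 4, above 9.03 to 9.05. ZKSCAN4 was at 6.95 on podofilox replicate 4, above 6.90 on the other 3, a gap of little size.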

How the results depend on the processing

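Fallen members numbered 7 with array weights, where 15.8% of all genes fell. They also numbered 7 where any probe set counts (added after seeing the data), for which no share over all genes was taken. Under the other alternatives 3 to 6 fell, beside 8.96% to 28.6% of the genes tested. The highest share was among genes above the median signal, which held 18 members. Risen members numbered 2 among genes above the median signal and with an intensity trend and robust estimation, and 3 with a further quantile normalization, with median centring and with array weights. In that order, 44.9%, 24.5%, 21.4%, 20.9% and 29.1% of the genes tested were called in either direction. Without 1 array, 4 to 6 fell and 1 to 2 rose, where 14.9% to 19.8% of all genes were called. The members' median then ran from -0.029 to 0.028. It was 0.039 on arrays 1 and 2 alone and -0.038 on arrays 3 and 4 alone. ZSCAN5A, ZSCAN30 and PGBD1 kept their calls in all 16 fits that held them (the filter on dim genes dropped them) and ZNF165 in all 17. Averaging probe sets ended the call of ZKSCAN2 (-0.03). It turned ZSCAN9 to -0.20 (adjusted p = 0.00903 by limma, range over alternatives 0.00903 to 0.579), since its dimmer probe sets then count as much as the brightest. MZF1 and ZNF24 crossed 0 under some alternatives and passed under none of the 17 that were tested. With the replicate block 4 fell and 1 rose, where 15.1% of all genes were called. With each gene's group mean taken off, what was left on same-numbered control and podofilox arrays correlated at -0.24 to 0.09. Over these settings 14.9% to 44.9% of the genes tested were called, the highest share being among the 9066 genes above the median signal. Dim probe sets limit what can be read of ZSCAN23, ZKSCAN8P1 and the fainter probe sets.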
